A study of Rattus norvegicus with 6 samples.

Results

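The antioxidant response that the transcription factor NRF2 controls was described here through 9 genes: Nqo1, Nfe2l2, Keap1, Gclc, Gclm, Hmox1, Txnrd1, Srxn1 and Slc7a11. They were taken from a list of NRF2, its inhibitor and direct NRF2 targets, and all 9 were present among the 28282 gene symbols of the count tables. The set was chosen by function and by 1 measured value of these data, the Nqo1 level, about 4-fold lower in SAP epithelium, so the SAP and CON values of Nqo1 are a description and carry no p-value. The other members, and the lists used below, were chosen with earlier results of these data known. Counts among them that are set beside all genes are therefore descriptions too.

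NRF2, the product of Nfe2l2, is held at a low level by KEAP1, which hands it to a CUL3 ubiquitin ligase for degradation. Electrophiles and oxidants modify cysteines of KEAP1, NRF2 accumulates in the nucleus and, with a small MAF partner, binds antioxidant response elements near genes for quinone reduction, glutathione synthesis, thioredoxin reduction and haem breakdown. Because NRF2 is controlled largely through protein stability, its mRNA level need not follow its activity. In the intestine the pathway is known for handling quinones and other electrophiles from food, bile and microbes, and NQO1, which reduces quinones by 2 electrons at once, is among its best known targets.

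Ileal nuclei came from 6 male Sprague-Dawley rats, 6 weeks old and acclimatised for 7 days, with 1 library per rat. In 3 SAP (severe acute pancreatitis) rats 3% sodium taurocholate was infused backwards into the pancreatic duct, at 0.1 mL per 100 g body weight, with the duct clamped for 5 min, and the 3 CON rats had a sham laparotomy without infusion. Both groups were fasted with free access to water and sampled at 24 h, so a single time point of a chemically induced disease in young males was seen, and all libraries carry the same batch label. Of 90461 barcodes, 40970 passed quality control, from 3189 to 9246 per library with 5549260 to 28771508 UMIs (unique molecular identifiers, each standing for 1 captured RNA molecule).

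Several facts of the libraries bear on every value below. The tables of CON rat 2 and SAP rat 1 list barcodes under 1000 UMIs and those of the other rats do not. SAP rat 1 had the fewest passing nuclei, and the median mitochondrial percentage was 1.84 and 1.29 in SAP rats 1 and 2 against 0.125 to 0.700 in CON. Clustering gave 22 marker-defined classes or unnamed clusters, 19 of which had at least 10 nuclei in every library (9 epithelial and 10 other). The class names carry the ending "-like", TA stands for transit-amplifying, SMC for smooth muscle cell and NAC for neuron-associated cells. Enterocyte markers were present, with none of the 11 genes found in the tables at 0 and sums of 1133 to 5857 CPM (UMIs of a gene per 1000000 UMIs of the same nuclei) in epithelial nuclei. In those nuclei the stem and TA marker sums were lower in every SAP library than in every CON library. Each gave p = 0.1 (exact permutation test), the smallest that 3 against 3 rats allow. TA sums were 93.7 to 541 CPM in SAP against 580 to 911 CPM in CON. Stem sums nearly touched, at 1180, 437 and 1239 CPM in SAP rats 1, 2 and 3 against 1241 to 1527 CPM in CON. Summed Paneth markers were 83627 CPM in CON rat 1 and 55320 CPM in SAP rat 1 against 4790 to 7496 CPM in the other libraries. The summed fat markers were higher in SAP epithelium without overlap (60.6 to 141 CPM against 14.3 to 53.2 CPM in CON). Outside the epithelium the summed SMC markers were lower in SAP (707 to 1581 CPM against 2109 to 2234 CPM in CON). Mast markers were lower there as well (23.9 to 65.8 CPM against 72.4 to 136 CPM in CON). The sums of all other marker lists looked at overlapped between the groups in each compartment. The part of these shifts in the results below was not tested except where a value is given. Of 34979 barcode names, 5398 occurred in 2 or more libraries. In sums over nuclei, fewer cells of a type and less RNA per cell cannot be told apart.

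The RefSeq promoter windows of the members, which run from 250 bases before to 50 after the annotated start in build GRCr8, were searched on both strands for the letters of 3 motifs. Windows were matched for 8 of the 9 members. The core of the antioxidant response element, TGACNNNGC, occurred in the windows of 3 of these 8 members and in 12.1% of all 33469 windows. It is shown in capitals for Gclm (172 bases before the start, chr2:213031953-213031982, + strand), Txnrd1 (78 bases before, chr7:22755963-22755992, − strand) and Nfe2l2 (after the start, chr3:81028950-81028979, − strand), each along the strand of its gene and, in Gclm and Txnrd1, in the reverse complement. Srxn1 held the AP-1 letters TGANTCA, which lie inside some antioxidant response elements and occurred in 7.33% of windows, at 62 and 5 bases before its start (chr3:161064739-161064768 and chr3:161064796-161064825, + strand). The Nqo1 window held neither of these patterns, but held the core of the xenobiotic response element of the aryl hydrocarbon receptor, GCGTG, in the reverse complement 10 bases before its start (chr19:52220260-52220289, − strand), letters found in 29.7% of windows and in those of 5 members. A match is a description of the letters, and elements outside these windows were not searched.
Gclm: tgcggtttctGCTTAGTCAttgtcttccag
Txnrd1: ctggatttttGCTTTGTCAttctgacacgg
Nfe2l2: actgctccgactagccatTGACGCCGCctc
Srxn1, farther: ctctgagggccTGAGTCAccacgctgtgcg
Srxn1, nearer: caaactcacccTGAGTCAgcgacccgacgc
Nqo1: cctaggctgtggCACGCaggatctttccga

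Nqo1 encodes NAD(P)H quinone dehydrogenase 1. Over all epithelial nuclei its level was 17.3, 26.6 and 23.7 CPM in CON rats 1, 2 and 3 and 5.89, 4.58 and 6.58 CPM in SAP rats 1, 2 and 3. Every SAP library lay below every CON library, as was so for 5.17% of the genes tested there, and the SAP libraries lay close together. These levels rest on 393, 261 and 333 Nqo1 UMIs in CON and on 28, 56 and 75 in SAP. The mean was 22.5 ± 4.76 CPM in CON and 5.68 ± 1.02 CPM in SAP (SD, n = 3 each), and the edgeR fit over all epithelial genes gave a log2 fold change of −2.01 (SE 0.28), or 4.02-fold lower. Paired by replicate number, the CON level was 2.93, 5.80 and 3.61 times that of SAP. Of 17009 genes tested in epithelial nuclei, 44 had a log2 fold change at least as low, and 8 of those had as high a mean level. Nqo1 was chosen on this contrast, so its place among the genes and its lack of overlap are descriptions and not support.

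The Nqo1 values were also taken with other weights and subsets of the epithelial nuclei, as a description. With each of the 9 epithelial classes given the same weight, the level was 19.6, 23.6 and 24.4 CPM in CON and 4.71, 6.11 and 5.89 CPM in SAP, or 4.05-fold lower. Without enterocyte-like nuclei, the largest SAP class, the log2 fold change was −1.87 (SE 0.26). CON rat 2 was 4.51 times SAP rat 1, the 2 libraries that list barcodes under 1000 UMIs, and the other CON rats averaged 3.68 times the other SAP rats. With nuclei of at most 1% mitochondrial UMIs the log2 fold change was −1.95 (SE 0.32).

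Outside the epithelium the Nqo1 values overlapped between groups. They were 16.6, 36.2 and 24.0 CPM in CON and 22.6, 8.0 and 10.1 CPM in SAP, with SAP rat 1, which rests on 18 UMIs, above CON rat 1. The log2 fold change was −0.93 (SE 0.48). Neutrophil-like nuclei held 15 of the 125 non-epithelial Nqo1 UMIs in SAP and 2 of 294 in CON, and their part was not tested. The epithelial fold change was lower than the non-epithelial one by 0.96 on the log2 scale (SE 0.35), with the rat as a block. Because Nqo1 was chosen by its epithelial value, that choice pushes the difference below 0, and the difference is a description. That difference was −0.62 without SAP rat 1 and −0.59 with nuclei of at most 1% mitochondrial UMIs, where SAP rat 1 keeps 384 nuclei.

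**Figure D1:**
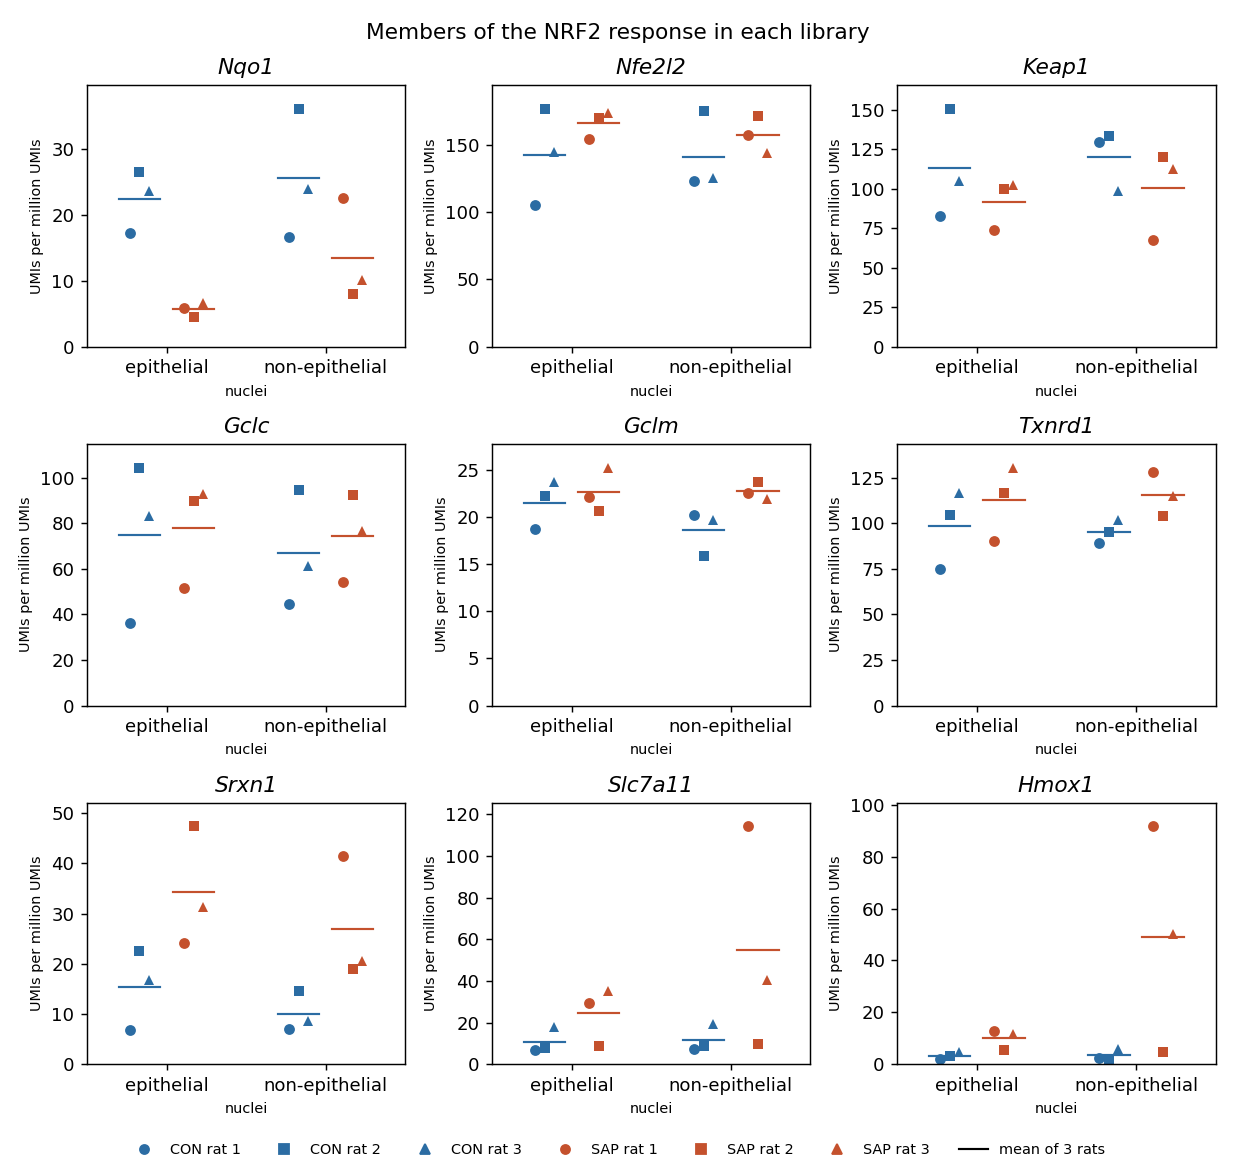
Level of each member (y axis, CPM, linear from 0) in each of 3 CON and 3 SAP libraries, in epithelial and non-epithelial nuclei, with the mean of 3 rats as a bar. Nqo1 in epithelium lies at 17.3 to 26.6 in CON and 4.58 to 6.58 in SAP, while Nfe2l2, Keap1, Gclc, Gclm, Txnrd1 and Slc7a11 overlap there.

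By class, Nqo1 had a lower mean in SAP in 9 of 9 epithelial classes, without overlap of the libraries in 7 (over the epithelial class fits, 6.95% of tests of all genes were lower without overlap). That share covers genes that passed the filter on low counts. Among the 7, Nqo1 did not pass it in unnamed cluster 9 and enteroendocrine-like nuclei, which held 2 and 0 Nqo1 UMIs in SAP. Cluster 9, led by Gfra4 and Kif19, had the highest Lgr5 level of the clusters, at 367 CPM against 157 CPM in stem/TA-like nuclei. The stem/TA-like class is thus not the whole of the Lgr5-rich nuclei. In stem/TA-like nuclei Nqo1 was 18.1, 20.7 and 24.7 CPM in CON and 6.19, 8.75 and 5.82 CPM in SAP. In cluster 1, an unnamed epithelial cluster led by Ceacam20, Car4 and Slc26a3, it was 23.0, 38.7 and 35.7 CPM in CON and 4.87, 3.59 and 7.10 CPM in SAP, and the fitted log2 fold change was −2.58 (SE 0.36). In enterocyte-like nuclei, the absorptive cells, it was 13.8, 19.2 and 11.6 CPM in CON and 3.14, 2.22 and 3.30 CPM in SAP. In each of these classes all SAP libraries lay below all CON libraries. The classes are parts of the epithelial sum on which Nqo1 was chosen. Their order, like the count of 7, is a description and not support.

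Among the secretory classes, Paneth-like and tuft-like nuclei overlapped between the groups, and goblet-like and enteroendocrine-like nuclei did not. Goblet-like nuclei had 21.2, 25 and 22.9 CPM in CON and 13.7, 8.40 and 7.09 CPM in SAP, without overlap. Paneth-like nuclei had 13.6, 29.2 and 23.5 CPM in CON and 9.91, 12.9 and 15.8 CPM in SAP, where SAP rat 3 lay above CON rat 1. Enteroendocrine-like nuclei had 35.1, 10.3 and 25.3 CPM in CON and no Nqo1 UMI in any SAP library. Tuft-like nuclei overlapped, at 5.75 to 22.9 CPM in CON and 0 to 8.88 CPM in SAP. The lowest of these CON values, in rat 2, came from 1 of 88 nuclei. Nqo1 passed the filter on low counts in 8 class fits, so the remaining classes are described by their levels alone. Of these 8, the log2 fold change was below 0 in 7, from −2.58 in cluster 1 to −0.96 in Paneth-like nuclei, and 0.13 (SE 0.50) in SMC-like nuclei.

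Among the 10 other classes the mean was lower in SAP in 8, without overlap in 5 (7.17% of tests in those class fits). That share covers genes that passed the filter on low counts, and among the 5 Nqo1 passed it in cluster 4 alone. The rest were fibroblast-like, macrophage-like, cluster 14 and cluster 22 nuclei, which held 20, 6, 14 and 2 Nqo1 UMIs in SAP. Cluster 4, an unnamed immune cluster led by Mcpt10, Gzma and Gzmb, had 21.0, 36.3 and 31.1 CPM in CON and 8.50, 8.88 and 5.06 CPM in SAP. SMC-like nuclei had 22.6, 22.1 and 19.7 CPM in CON and 40.5, 23.3 and 15.4 CPM in SAP, and endothelial-like nuclei had 10.1, 29.5 and 26.9 CPM in CON and 47.3, 14.4 and 18.9 CPM in SAP. These 2 stromal classes were those whose SAP mean lay above the CON mean, and in both the libraries overlapped. In SAP rat 1 the endothelial-like value came from 1 of 13 nuclei and the SMC-like value from 5 of 92. Endothelial-like nuclei held 13 Nqo1 UMIs in CON and 7 in SAP, and SMC-like nuclei 43 and 30. The means weight each library equally, so their order rests on few UMIs and is not read as a rise.

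**Figure D2:**
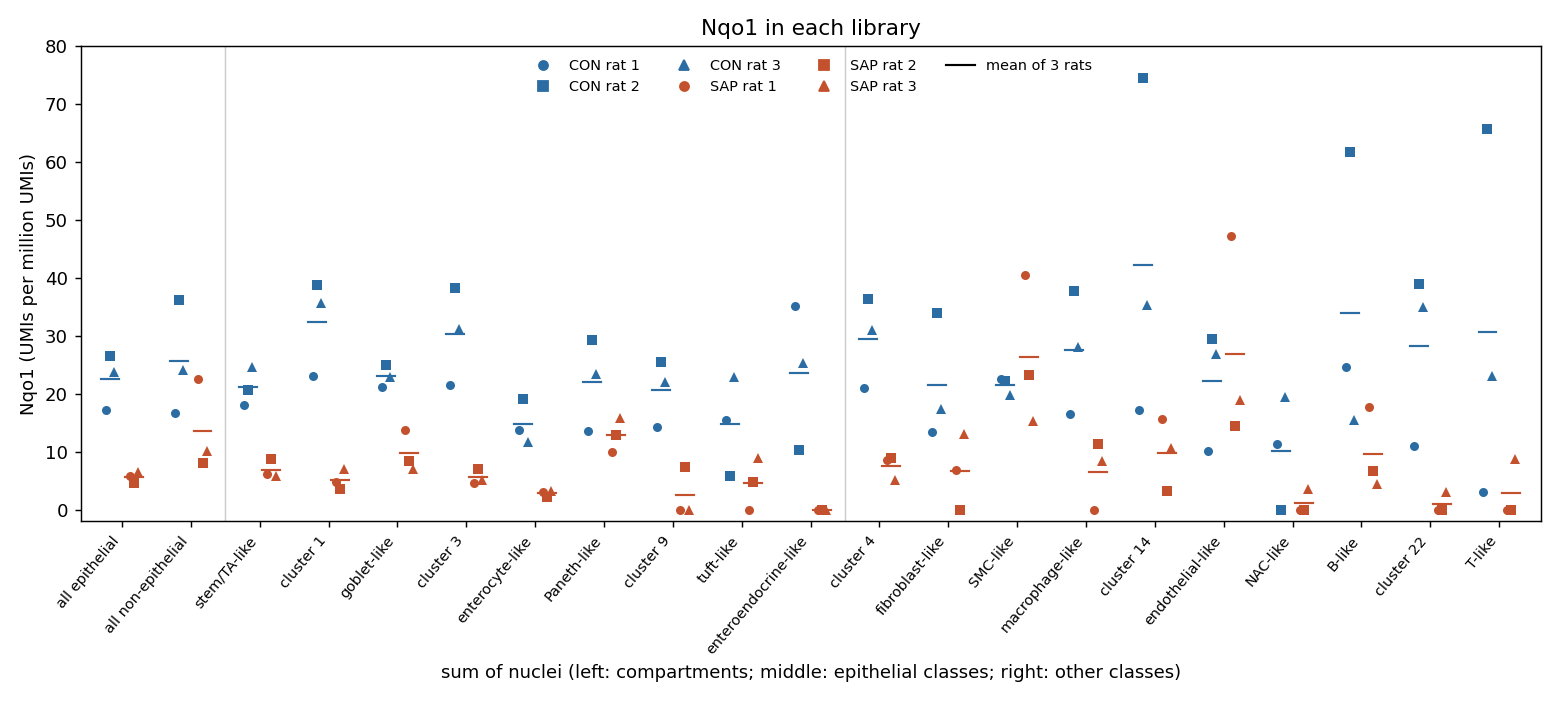
Nqo1 level (y axis, CPM) in each of 3 CON (blue) and 3 SAP (orange) libraries, for all epithelial and all non-epithelial nuclei and for each of 9 epithelial and 10 other classes, with means as bars. SAP libraries lie below all CON libraries in 7 of the 9 epithelial classes and 5 of the 10 other classes. Nqo1 passed the filter on low counts in 8 class fits, and values of the other classes rest on few UMIs.

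In CON the mean Nqo1 level ran from 42.3 CPM in cluster 14 to 10.2 CPM in NAC-like nuclei, with a median of 23.0 CPM. Cluster 14, an unnamed non-epithelial cluster led by uncharacterised loci, had 17.1, 74.5 and 35.3 CPM in CON rats 1, 2 and 3. The highest and lowest means rest on 46 and 6 Nqo1 UMIs, and their ratio was 4.14. For the other members except Hmox1 this ratio was 1.98 (Keap1) to 13.1 (Srxn1). None of the 18 pairs of neighbouring classes in this order had libraries that did not overlap, as was so for every member. Epithelial nuclei held 77.8% of all UMIs of passing CON nuclei and 77.0% of the Nqo1 UMIs. In SAP they held 70.2% of all UMIs and 56.0% of the Nqo1 UMIs. For comparison, the CON mean of Epcam, an epithelial adhesion molecule, ran from 1727 CPM in enterocyte-like to 362 CPM in NAC-like nuclei, and that of Ptprc, the leukocyte antigen CD45, from 1754 CPM in T-like to 40.4 CPM in NAC-like nuclei.

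The share of nuclei with a Nqo1 UMI was compared after each nucleus was thinned to 1200 UMIs. It was 1.99%, 2.93% and 2.56% of epithelial nuclei in CON rats 1, 2 and 3 and 0.791%, 0.574% and 0.705% in SAP rats 1, 2 and 3, against 4.33% to 4.76% and 1.01% to 1.43% before thinning. Pooled over libraries, the thinned share was 2.44% of CON epithelial nuclei (exact 95% binomial interval 2.22% to 2.67%, counting error only) and 0.669% of SAP ones (0.534% to 0.828%). In CON it was 1.79% in B-like (0.723% to 3.65%) and 1.93% in T-like nuclei (0.630% to 4.45%), at median depths of 1787 and 1706 UMIs against 1742 in epithelial nuclei. B-like nuclei also held 505 to 1045 CPM of Epcam. The epithelial share thus lay within the intervals of lymphocyte-like nuclei, so Nqo1 UMIs of a class's own nuclei and those of free RNA in the droplets cannot be told apart, and the spread between classes is not read as an expression pattern. Of 225 SAP enteroendocrine-like nuclei none held a Nqo1 UMI, which allows a share of nuclei with a UMI of up to 1.63% by the exact interval. This limit covers counting error only, does not bound the share of cells that express the gene, and lies within the CON interval of the class (1.09% to 4.88%).

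**Figure D3:**
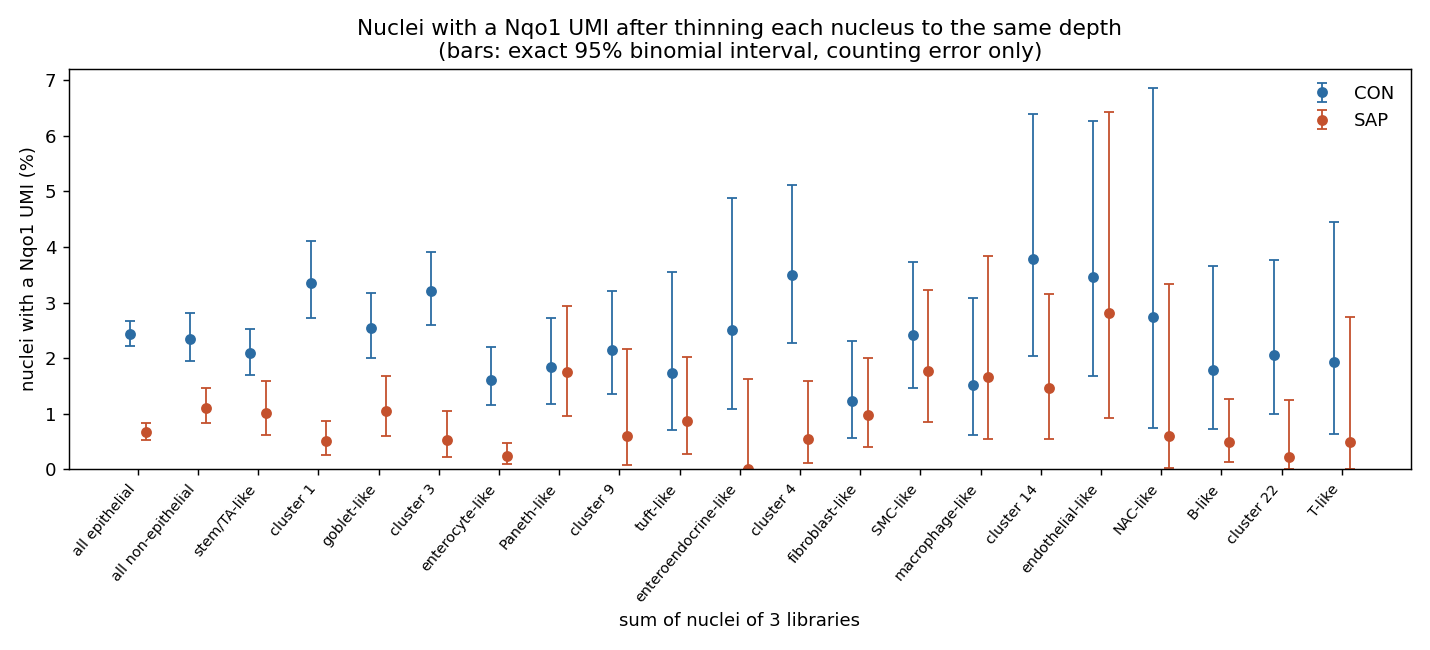
Percentage of nuclei with a Nqo1 UMI (y axis) after thinning each nucleus to 1200 UMIs, pooled over 3 CON (blue) and 3 SAP (orange) libraries, for the compartments and each class, with exact 95% binomial intervals that cover counting error only. The CON share is 2.44% over epithelial nuclei, 1.79% in B-like and 1.93% in T-like nuclei, and the SAP epithelial share is 0.669%.

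The regulators of the pathway, Nfe2l2 and Keap1, did not pass the test in any comparison. In epithelial nuclei Nfe2l2 was 105, 177 and 145 CPM in CON and 154, 170 and 174 CPM in SAP (log2 fold change 0.23, SE 0.21, adjusted p = 0.696), with SAP inside the CON range. Keap1 was 82.8, 151 and 105 CPM in CON and 73.6, 99.8 and 102 CPM in SAP (−0.30, SE 0.23, adjusted p = 0.646). Outside the epithelium both again overlapped, with log2 fold changes of 0.25 (SE 0.24) and −0.19 (SE 0.28). The SAP mean of Nfe2l2 was above CON in 16 of 19 classes and that of Keap1 below CON in 15 of 19, none of them called. In CON, Nfe2l2 ran from 209 CPM in endothelial-like to 85.7 CPM in NAC-like nuclei and Keap1 from 153 CPM in endothelial-like to 77.5 CPM in Paneth-like nuclei, and no neighbours in either order were separate. A call needed an adjusted p under 0.05 together with a log2 fold change of 0.5 or more in either direction. By this rule edgeR called 0 of 17009 genes in epithelial nuclei (0%) and 0 of 16861 in non-epithelial nuclei (0%), while 1902 (11.2%) and 1152 (6.83%) had an unadjusted p under 0.05, and DESeq2 called 306 and 75.

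Glutathione synthesis starts with glutamate-cysteine ligase, whose catalytic subunit is Gclc and whose modifier subunit is Gclm. Gclc was 36.4, 104 and 83.1 CPM in CON and 51.8, 89.5 and 92.6 CPM in SAP epithelium (log2 fold change 0.10, SE 0.30, adjusted p = 0.921). Gclm was 18.7, 22.2 and 23.7 CPM in CON and 22.1, 20.7 and 25.3 CPM in SAP (0.05, SE 0.24, adjusted p = 0.954). For both the groups overlapped, and the sign of these small differences turned under some settings. Outside the epithelium Gclm was 20.3, 15.9 and 19.6 CPM in CON and 22.6, 23.7 and 21.9 CPM in SAP. There every SAP library lay above every CON library, as did those of 4.09% of genes tested, by a small amount that did not pass the test (0.35, SE 0.30, adjusted p = 0.882).

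Slc7a11 encodes xCT, the cystine and glutamate exchanger that supplies cysteine for glutathione. In epithelial nuclei it was 6.77, 7.63 and 18.0 CPM in CON and 29.2, 8.66 and 35.3 CPM in SAP (log2 fold change 1.18, SE 0.52, adjusted p = 0.454). SAP rats 1 and 3 lay above all CON rats, and SAP rat 2 lay between them. Goblet-like nuclei, which make mucus, held 32.4% of its CON UMIs with 11.6% of all UMIs, and had 22.9, 19.5 and 47.0 CPM in CON and 87.9, 55.1 and 101 CPM in SAP. In this class the SAP libraries all lay above the CON libraries, with a log2 fold change of 1.5 (SE 0.36, adjusted p = 0.354). DESeq2 called it (1.51, adjusted p = 0.0329), and over all class fits DESeq2 called 866 of 153934 tests. Of 11987 genes tested in goblet-like nuclei 5.21% were higher in SAP without overlap.

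Outside the epithelium Slc7a11 was 7.14, 8.89 and 19.3 CPM in CON and 114, 9.84 and 40.6 CPM in SAP (log2 fold change 2.24, SE 0.79, adjusted p = 0.676). SAP rat 2 was again within the CON range. Part of the SAP rat 1 value came from few nuclei. Its 92 SMC-like nuclei held 74 Slc7a11 UMIs in 10 nuclei, with 46 in a single nucleus. The epithelial value of the same rat was touched likewise, since its 30 enteroendocrine-like nuclei held 20 UMIs, all in 1 nucleus. In fibroblast-like nuclei Slc7a11 was 23.4, 9.68 and 36.5 CPM in CON and 27.3, 15.2 and 86.5 CPM in SAP, with overlap.

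Txnrd1, the cytosolic thioredoxin reductase, was 74.7, 105 and 117 CPM in CON and 90.1, 117 and 130 CPM in SAP epithelium (log2 fold change 0.18, SE 0.18, adjusted p = 0.725), with overlap. Outside the epithelium it was 88.9, 95.2 and 102 CPM in CON and 128, 104 and 115 CPM in SAP. There the SAP libraries all lay above the CON libraries, by 0.35 on the log2 scale (SE 0.21, adjusted p = 0.815). SMC-like nuclei had the widest gap of this kind among the classes with over 100 Txnrd1 UMIs in each group, at 94.9, 77.5 and 103 CPM in CON and 168, 122 and 139 CPM in SAP (0.63, SE 0.29, adjusted p = 0.464), in a class where 7.23% of genes were higher without overlap. By class, Txnrd1 was higher in SAP without overlap in 1 of 9 epithelial and 3 of 10 other classes, against 5.35% and 4.55% of all tests in those classes.

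Srxn1, sulfiredoxin, restores peroxiredoxins that have been over-oxidised. In epithelial nuclei it was 6.77, 22.5 and 16.9 CPM in CON and 24.2, 47.4 and 31.3 CPM in SAP, from 154, 221 and 237 UMIs in CON and 115, 580 and 357 in SAP. Every SAP library lay above every CON library, although SAP rat 1 and CON rat 2 were close, and 5.39% of all genes tested there were higher in SAP without overlap. The log2 fold change was 1.25 (SE 0.41), and it did not pass the test over all genes (edgeR, adjusted p = 0.402). Within the pair of libraries that list barcodes under 1000 UMIs the SAP to CON ratio was 1.08, and over the other libraries it was 3.33.

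Among the 19 classes Srxn1 had its highest CON mean in enterocyte-like nuclei, at 33.9 CPM, and its lowest in NAC-like nuclei, at 2.58 CPM, although no neighbours in this order were separate. Enterocyte-like nuclei held 30.4% of its UMIs in CON, with 11.8% of all UMIs, and 47.0% in SAP, with 20.3% of all UMIs. Within the class it was 12.2, 40.1 and 49.3 CPM in CON and 40.0, 84.4 and 76.4 CPM in SAP, with overlap (log2 fold change 1.12, SE 0.41, adjusted p = 0.596). Without enterocyte-like nuclei the epithelial log2 fold change was 0.88 (SE 0.43). With the 9 epithelial classes weighted equally, the level was 7.33, 22.0 and 13.0 CPM in CON and 24.5, 31.9 and 27.5 CPM in SAP, a ratio of 1.98 without overlap (exact permutation test, p = 0.1). Outside the epithelium it was 6.98, 14.6 and 8.59 CPM in CON and 41.4, 19.1 and 20.5 CPM in SAP (1.52, SE 0.46, adjusted p = 0.647), again without overlap.

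Hmox1, the inducible haem oxygenase that splits haem into biliverdin, iron and carbon monoxide, was low in CON. In epithelial nuclei it was 1.89, 3.26 and 4.92 CPM in CON and 12.8, 5.56 and 11.7 CPM in SAP, from 43, 32 and 69 UMIs in CON and 61, 68 and 134 in SAP. SAP rats 1 and 3 stood well above CON, and SAP rat 2 just above the highest CON library. The log2 fold change was 1.62 (SE 0.44). It did not pass the edgeR test (adjusted p = 0.401) and was called by DESeq2 (1.64, adjusted p = 0.0296), which called 306 of 17009 genes there. The equal-weight mean over the 9 epithelial classes was 3.61 times higher in SAP (exact permutation test, p = 0.1).

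Outside the epithelium Hmox1 was 2.49, 1.90 and 5.96 CPM in CON and 91.7, 4.92 and 50.1 CPM in SAP (log2 fold change 3.74, SE 0.92, edgeR adjusted p = 0.637, DESeq2 adjusted p = 0.00158). DESeq2 called 75 of 16861 genes there. SAP rat 2 lay inside the CON range and the other SAP rats far above it. Neutrophil-like nuclei, 143 in all and too few per library to be tested, held 41.1% of the 754 SAP Hmox1 UMIs with 0.658% of all UMIs, and 1 of 196 in CON. In SAP rat 3, 50 such nuclei held 274 UMIs, 135 of them in 1 nucleus, and in SAP rat 1, 29 nuclei held 35 UMIs. The summed neutrophil markers of non-epithelial nuclei were 301, 3.81 and 18.1 CPM in CON and 6466, 20.3 and 455 CPM in SAP. Those of epithelial nuclei were 11, 1.93 and 5.70 CPM in CON and 161, 4.17 and 39.1 CPM in SAP. SAP rats 1 and 3 were highest in these sums as in Hmox1, but the order otherwise differed. In both compartments CON rat 1 had more of these markers than CON rat 3 and SAP rat 2, and less Hmox1. SAP rat 1 had more of them than SAP rat 3, but fewer Hmox1 UMIs in neutrophil-like nuclei. All 5 neutrophil markers had UMIs in both compartments. Their part in the epithelial result was not tested. Without neutrophil-like nuclei the non-epithelial log2 fold change was 2.68 (SE 0.83, adjusted p = 0.725).

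SMC-like nuclei were the other class with a large Hmox1 difference. They held 2, 0 and 4 Hmox1 UMIs in CON rats 1, 2 and 3 and 33, 3 and 33 in SAP rats 1, 2 and 3. In SAP rat 1 these lay in 11 of 92 nuclei and in SAP rat 3 in 20 of 383. The gene was removed by the filter on low counts in this class, and in the fit with the replicate number as a block it passed both the filter and the test (log2 fold change 4.58, SE 0.67, adjusted p = 0.0310). Fibroblast-like nuclei held 3, 0 and 11 Hmox1 UMIs in CON and 2, 4 and 38 in SAP, too few in most libraries for an order of levels to be read.

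**Figure D4:**
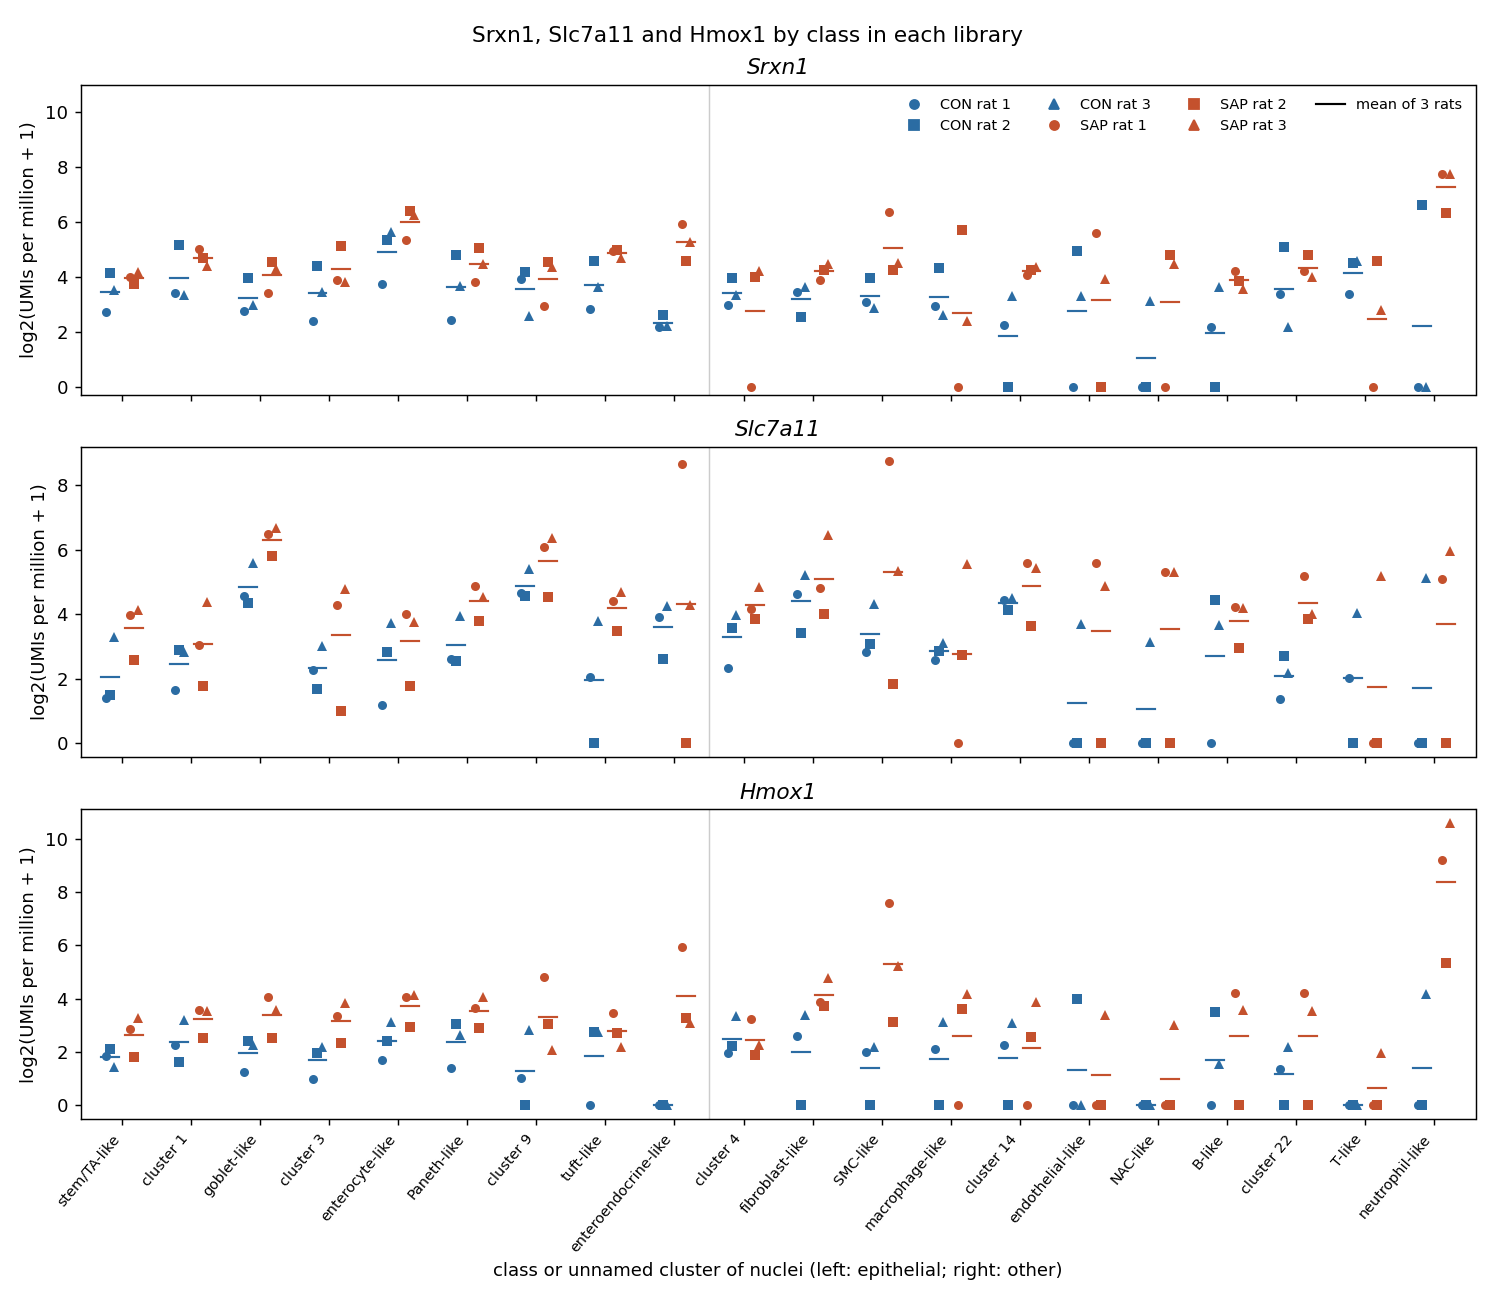
Levels of Srxn1, Slc7a11 and Hmox1 (y axis, log2 of CPM plus 1) in each of 3 CON (blue) and 3 SAP (orange) libraries, for 9 epithelial and 10 other classes and neutrophil-like nuclei, with the mean of the log values as bars. Slc7a11 stands highest in goblet-like and cluster 9 nuclei of CON, Srxn1 in enterocyte-like nuclei, and Hmox1 reaches 584 and 1514 CPM in neutrophil-like nuclei of SAP rats 1 and 3.

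Set side by side, most of the 8 members other than Nqo1 had a log2 fold change above 0, and none passed the test. Those of Nfe2l2, Gclc, Gclm and Txnrd1 in epithelium were close to their SE or below it. In epithelial nuclei 7 of 8 had a log2 fold change above 0 with a median of 0.20, against a median of −0.0032 over all 17009 genes, of which 8462 were higher and 8547 lower. Hmox1 and Srxn1 had an unadjusted p under 0.05, that is 2 of 8 against 11.2% of all genes, and the same 2 were higher in SAP without overlap, against 5.39%. In non-epithelial nuclei 7 of 8 were above 0 with a median of 0.35, against 0.024 over all genes, and Hmox1, Srxn1 and Slc7a11 had an unadjusted p under 0.05, that is 3 of 8 against 6.83% of all genes. Between SAP rat 1 and CON rat 2, which share the longer barcode lists, the epithelial SAP to CON ratio was 3.94 for Hmox1 and 3.83 for Slc7a11 but 0.489 for Keap1 and 0.496 for Gclc. Over the other libraries the ratios of these genes were 2.54, 1.78, 1.08 and 1.52, so Keap1 and Gclc turned between the sets. Nfe2l2 (0.874 against 1.37), Txnrd1 (0.861 against 1.29) and, barely, Gclm (0.996 against 1.08) turned as well. The signs of these members over all libraries thus differ from those within the pair of SAP rat 1 and CON rat 2, except for Keap1. The difference between compartments was not called for any of them, with Hmox1 the farthest apart (epithelial minus non-epithelial, −1.73, SE 0.72, adjusted p = 0.865), in a fit that called 1 of 19539 genes (0.00512%). In the class fits, 0 tests of these 8 members were called, against 17 of 153934 tests of all genes (0.011%). With the replicate number as a block, edgeR called 5 genes in non-epithelial nuclei and 141 tests in the class fits, 1 of them a member (Hmox1 in SMC-like nuclei).

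**Figure D5:**
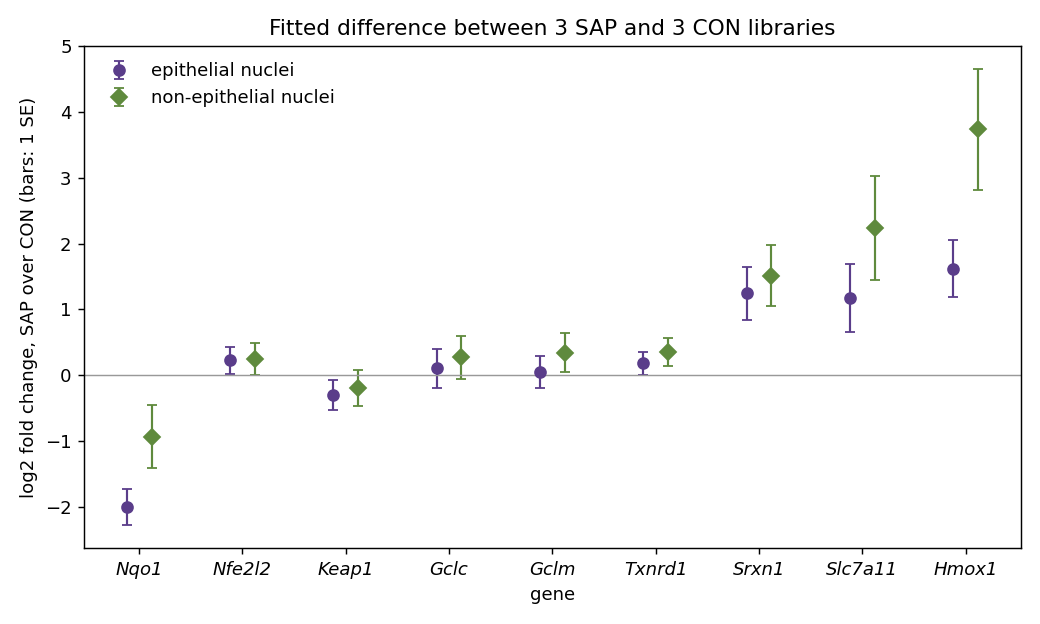
Fitted log2 fold change of each member, SAP over CON (y axis, bars 1 SE), from 3 SAP and 3 CON libraries, in epithelial nuclei (circles) and non-epithelial nuclei (diamonds). Nqo1 lies at −2.01 and −0.93, Nfe2l2, Keap1, Gclc, Gclm and Txnrd1 between −0.30 and 0.35, and Srxn1, Slc7a11 and Hmox1 between 1.18 and 3.74.

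Of 12 other regulators of NRF2, 7 were higher and 5 lower in SAP epithelium (median log2 fold change 0.02), none called, and 3 were higher without overlap, against 5.39% of all genes. These were Maff, Mafk and Bach1, a pair of small MAF partners and the repressor that competes with NRF2 for its sites. Maff was 2.11, 3.66 and 7.13 CPM in CON and 13.3, 17.4 and 18.6 CPM in SAP (2.00, SE 0.37, adjusted p = 0.401). Mafk had a log2 fold change of 1.08 (SE 0.30) and Bach1 one of 0.71 (SE 0.20), both at an adjusted p of 0.401. All 3 were also higher without overlap outside the epithelium, at 1.23, 0.97 and 0.46 for Maff, Mafk and Bach1, against 4.09% of all genes without overlap there, and none was called.

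The fold changes of the enzymes downstream went in both directions. Higher in SAP without overlap were 2 of 10 glutathione genes, neither named below, and 3 of 11 thioredoxin and peroxiredoxin genes, among them Prdx5 and Prdx6. So were 1 of 6 NADPH genes (Idh1) and 0 of 7 haem and iron genes, against 5.39% of all genes. In each of these lists 0 genes were lower without overlap, against 5.17%. Of 10 genes of glutathione synthesis and reduction 6 were higher and 4 lower (median 0.24), led by Ggt1, the brush border gamma-glutamyltransferase (31.9, 59.1 and 97.9 CPM in CON, 97.6, 170 and 139 CPM in SAP, log2 fold change 1.18, SE 0.32, adjusted p = 0.401). Gpx3 had 0.96 (SE 0.55) and Gsr, glutathione reductase, −0.33 (SE 0.23). Of 11 thioredoxin and peroxiredoxin genes tested 5 were higher and 6 lower (median −0.0065), with Txnip at 0.97 (SE 0.45), Prdx5 at 0.78 (SE 0.54) and Prdx6 at 0.43 (SE 0.33). Of 6 genes that supply NADPH 4 were higher (median 0.27), with Idh1 at 0.63 (SE 0.28), Me1 at 0.34 (SE 0.24) and Taldo1 at 0.44 (SE 0.37). Of 7 haem and iron genes 2 were higher (median −0.15), with biliverdin reductase Blvra at −0.91 (SE 0.35) and the ferritin chains Fth1 at 1.37 (SE 0.80) and Ftl1 at 1.07 (SE 0.85), whose counts can include reads of near-identical copies. None of these genes was called.

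Detoxification enzymes were mixed as well. Higher in SAP without overlap were 2 of 18 glutathione transferases (Gsta5 and Gsta2), 1 of 18 other detoxification genes (Osgin1) and 1 of 3 dismutase and catalase genes (Cat). Lower without overlap were 1 glutathione transferase (Gsta4) and 1 other detoxification gene (Cbr3). Over all genes 5.39% were higher and 5.17% lower without overlap. Of 18 glutathione transferases 12 were higher and 6 lower (median 0.08). Within the alpha family, whose members share sequence so that their counts are uncertain, Gsta5 was 4.75, 3.36 and 9.98 CPM in CON and 24.6, 17.6 and 15.9 CPM in SAP (1.72, SE 0.46), Gsta2 had 1.60 (SE 0.53), and Gsta4, which conjugates lipid aldehydes, was 22.5, 39.4 and 29.8 CPM in CON and 16.0, 16.6 and 19.4 CPM in SAP (−0.82, SE 0.25). Of 18 other detoxification enzymes and exporters tested 8 were higher and 10 lower (median −0.08). The carbonyl reductase Cbr3 lay below CON without overlap, at 5.98, 12.5 and 6.77 CPM in CON and 3.16, 1.47 and 5.52 CPM in SAP (−1.39, SE 0.49). Cbr1 had −1.26 (SE 0.56) and Osgin1 0.89 (SE 0.37). Of 3 dismutase and catalase genes tested, catalase (Cat) was 13.6, 18.2 and 22.9 CPM in CON and 33.9, 43.7 and 41.0 CPM in SAP (1.13, SE 0.24, adjusted p = 0.401), Sod2 had 0.70 (SE 0.46) and Sod1 −0.04 (SE 0.67). None of these genes was called.

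Nqo1 is also a known target of the aryl hydrocarbon receptor. Of 7 genes of that pathway 4 were tested in epithelium, 2 higher and 2 lower (median 0.06). Tiparp, a target that feeds back on the receptor, was 21.5, 29.5 and 36.1 CPM in CON and 44.8, 64.0 and 48.1 CPM in SAP (0.88, SE 0.26, adjusted p = 0.402), above CON without overlap. The repressor Ahrr had −0.82 (SE 0.36) and the partner Arnt 0.16 (SE 0.21), both with overlap. Outside the epithelium the counts of higher and lower genes were 7 and 5 for the regulators, 6 and 4 for glutathione, 7 and 3 for thioredoxin, 6 and 0 for NADPH supply, 4 and 3 for haem and iron, 11 and 7 for glutathione transferases, 9 and 8 for other detoxification, 3 and 1 for dismutases and catalase and 3 and 2 for the aryl hydrocarbon receptor pathway, again with none called.

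The genes most like Nqo1 were found by Pearson's correlation of log2(CPM + 1) over 114 sums of a class in a library, among 11235 genes with a mean of at least 10 CPM. The points share libraries, depth and the SAP and CON difference itself, so this is a description. The highest were LOC681177 (r = 0.671), St8sia6 (0.654), Hjurp (0.620), LOC100361907 (0.616) and Cenpa (0.597). All 5 were lower in every SAP than in every CON library in epithelium, as Nqo1 was. St8sia6, a sialyltransferase, was 187, 331 and 328 CPM in CON and 4.84, 1.14 and 6.66 CPM in SAP, and Hjurp and Cenpa act at the centromere in dividing cells. Of the other members, 7 were ranked, the highest being Keap1 at 0.217 and Nfe2l2 at 0.126, and Hmox1 was left out by its mean level. Over the 19 CON class means alone, which leave out the SAP difference, the most alike were LOC120101644 (0.834), LOC102549109 (0.819), Bcl2l13 (0.801), Ccdc88c (0.793) and LOC120102210 (0.772), and Nfe2l2 ranked 195 with r = 0.637. These means are the spread between classes that is not read as an expression pattern. With 19 points and 11235 genes, this ranking is a description too and not read as shared expression.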

How the data were processed

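Nuclei of 3 CON and 3 SAP rat ilea were isolated with a commercial kit and sequenced on the DNBelab platform. The deposited tables hold raw UMI counts for each gene in each barcode, which the authors made against the mRatBN7.2 build named in the submitters' processing notes, without normalization. No strand setting is given in the sources used here. Spatial data were not analysed here.

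As in the study's methods, a nucleus was kept if it had 1200 UMIs and 500 genes or more and its mitochondrial share did not exceed 5%. With Python 3.11.15, scanpy 1.11.5 and leidenalg 0.10.2, 2000 variable genes without the members and lists, 30 principal components and a re-implemented Harmony step gave clusters at resolution 0.8. These were named from marker lists by rules set after the clusters were seen. Doublets (the 5% highest scores per library) were kept, and removed as an alternative. UMIs were summed per library and class and tested with edgeR 4.0.16 under R 4.3.3 (filterByExpr, TMM, robust quasi-likelihood fit, Benjamini-Hochberg adjustment over all genes of a fit), with DESeq2 1.42.0 as an alternative. In data simulated from the epithelial sums, 132 of 200 changed genes were recovered with 8 false calls. The simulation used a single fixed dispersion for all genes and no differences in mitochondrial share or barcode lists. It checks the fit and does not give the power of the tests here. CPM was taken within each sum, per 1000000 UMIs.

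The members and lists were chosen with earlier results of these data known. All members are named, and of each list the up to 3 genes with the smallest unadjusted p in epithelium, or any called. The labels number the rats of both groups 1 to 3. Over genes, deviations from the group means of libraries with the same number correlated at 0.577, 0.183 and 0.524 over all nuclei, so by the rule used the numbers were taken to pair the libraries, though no source states a shared day. In epithelial nuclei these correlations were 0.587, 0.053 and 0.431, and SAP rat 2 correlated more with CON rat 3 (0.175) than with CON rat 2, so the pairing is uncertain there. The SAP against CON fits as reported did not use the pairing, and the block on the replicate number was an alternative. The labels give no other relation between rats. Alternatives are listed at the end.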

Additional observations from a re-analysis of the deposited data

Results flagged for a closer look

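Barcodes that did not pass quality control, 1625 to 23026 per library, were not part of the comparisons. In them Hmox1 was 2.28, 2.68 and 3.66 CPM in CON rats 1, 2 and 3 and 21.7, 4.26 and 22.6 CPM in SAP rats 1, 2 and 3, 5.62 times higher on average and without overlap (exact permutation test, p = 0.1). Srxn1 was 8.76, 17.7 and 12.5 CPM in CON and 22.2, 36.2 and 28.4 CPM in SAP there, 2.23 times higher and without overlap (exact permutation test, p = 0.1). Nqo1 was 19.8, 29.7 and 19.8 CPM in CON and 9.66, 8.53 and 10.3 CPM in SAP, 2.43-fold lower. The failing barcodes are unlike sets between libraries. Those of CON rat 2 and SAP rat 1 (17654 and 23026) reach down to 545 and 502 UMIs, and those of the other libraries to 1000. In SAP rat 1, 3871 barcodes exceeded the mitochondrial limit. The part of these differences in the values was not tested.

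Gclm was lower in SAP in 1 class and higher in 2 of 19 classes without overlap of the libraries, and none of these was called. Over all genes 4.55% to 7.17% of class tests did not overlap in a given direction. These shares cover genes that passed the filter on low counts. Gclm passed it in 12 classes, with 1 higher and 0 lower without overlap. The SAP to CON ratio was 0.146 in endothelial-like nuclei, from 11 UMIs in CON and 2 in SAP, 1.95 in cluster 9 and 2.03 in SMC-like nuclei. The difference between these classes was not tested.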

How the results depend on the processing

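The epithelial log2 fold change of Nqo1 lay between −2.11 and −1.87 under 16 alternatives. Its median over the epithelial classes whose fit kept Nqo1, −1.95 as reported, was −2.32 without a filter on low counts and −2.29 with the replicate block. It was −2.24 with the barcode list as a covariate, −1.56 at resolution 0.4 and −2.28 to −1.89 when single replicates were left out. The classes that keep Nqo1 can differ between settings, so these medians need not cover the same classes.

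Counts of called genes as reported were 0 for epithelium, 0 for other nuclei, 1 for the difference between them and 17 over the classes. DESeq2 gave 306, 75, 29 and 866, library totals alone 1, 0, 12 and 98, and no filter on low counts 1, 3, 316 and 2821. Size factors of the RLE method gave 2 for the difference, at most 1% mitochondrial UMIs gave 1 for epithelium and 4 for the difference, and the barcode list covariate gave 10 over the classes. With the numbers taken as pairs, which no source states, the replicate block gave 5 for other nuclei, 141 over the classes and 1 for the tests of members over the classes (Hmox1 in SMC-like nuclei), and changed no other call. Tests of members over the classes, 0 as reported, gave 1 with DESeq2 (Slc7a11 in goblet-like nuclei), 2 without the filter (that test and Hmox1 in SMC-like nuclei) and 1 without SAP rat 2 (Hmox1 in neutrophil-like nuclei). Leaving out 1 replicate gave 0 to 1 for epithelium, 0 to 1 for other nuclei, 0 to 1 for tests of members, 0 to 119 for the difference (119 without CON rat 3, 5 without CON rat 1, 3 without SAP rat 1 or SAP rat 2, 0 without SAP rat 3) and 7 to 344 over the classes (344 without SAP rat 3, 157 without CON rat 3, 27 without SAP rat 2, 10 without CON rat 2, 7 without SAP rat 1). The cause was not tested.

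The Hmox1 difference between compartments was called without the filter (−1.65, adjusted p = 0.0045). Small values changed sign. Epithelial Gclm was −0.030 with at most 1% mitochondrial UMIs, −0.042 without enterocyte-like nuclei (added after seeing the data) and −0.013 to 0.183 with 1 replicate left out, below 0 without CON rat 2, CON rat 3 or SAP rat 1. Epithelial Gclc was −0.082 without CON rat 1 and −0.077 without SAP rat 2, within −0.082 to 0.366 over the replicates. Differences between compartments changed sign for Keap1 (0.014 with library totals, −0.133 to 0.022 over the replicates, above 0 without SAP rat 2), Nfe2l2 (−0.0078 at resolution 0.4, −0.125 to 0.110 over the replicates, below 0 without CON rat 2, CON rat 3 or SAP rat 3), Srxn1 (−0.534 to 0.374, above 0 without CON rat 3 or SAP rat 1) and Txnrd1 (−0.207 to 0.117, above 0 without SAP rat 1). Under the alternatives 441 other values kept their direction and their side of the threshold, or stayed within the bounds for counts, 43 moved and 16 changed sign.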
